A study of Mus musculus with 24 samples.

Results

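Pck1, G6pc, Fbp1, Pcx, Pck2, Slc37a4 and Mdh1, the genes of 7 enzymes and carriers of gluconeogenesis, were followed across all 24 arrays of a mouse hepatocyte study. They were taken by symbol from a list of the pathway, chosen with earlier results of these data known. Each had 1 probe set with no other gene on it, so that all 7 of the 7 listed genes were measured, among 22180 genes in all.

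Primary hepatocytes of male C57Bl6J mice were profiled on Affymetrix MoGene 2.0 ST chips. The labels state that they received an adenovirus (multiplicity of infection 5) with the hairpin shFOXA2.3, directed against the liver transcription factor FOXA2, or shlacZ, directed against a bacterial gene. They were then treated for 4 h with 100 nM glucagon or 1 nM insulin, each given together with 2 µM GW4064, which activates the bile acid receptor FXR, or with DMSO, its solvent. The labels name each group by 1 hormone, and glucagon groups are taken as having no insulin, although the treatment protocol does not spell this out. The 8 groups held 3 arrays each, 1 from each of experiments 1, 2 and 3. All groups shared the viral infection and a medium with 100 nM dexamethasone, a glucocorticoid. Each experiment used cells pooled from 3 mice, so an array stands for a pool and not for an animal. No group was left without a hormone, and a rise under glucagon cannot be told apart from a fall under insulin. The labels do not state the ages of the mice. The title of the series concerns FXR as an activator of gluconeogenesis in fasting and its dependence on protein kinase A and FOXA2.

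Gluconeogenesis makes glucose from lactate, amino acids and glycerol and lets the liver feed the rest of the body during fasting. In liver cells glucagon raises cAMP, which activates protein kinase A and the factor CREB, while insulin holds back the same genes through AKT and FOXO1. The route starts in the mitochondrion, where pyruvate carboxylase (gene Pcx) makes oxaloacetate, and malate carries that carbon to the cytosol, where malate dehydrogenase 1 (Mdh1) turns it back. Phosphoenolpyruvate carboxykinase, cytosolic (Pck1) or mitochondrial (Pck2), commits it to the pathway. Fructose-1,6-bisphosphatase (Fbp1) and glucose-6-phosphatase (catalytic subunit gene G6pc) then bypass irreversible steps of glycolysis, and the carrier encoded by Slc37a4 brings glucose-6-phosphate to that last enzyme inside the endoplasmic reticulum.

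The promoters of Pck1 and G6pc are shown because these genes differed most between the hormones. That of Fbp1 is shown because its hormone difference was smaller, and that of Slc37a4 because it encodes the partner of G6pc. The sequences are RefSeq windows of GRCm38.p6, with 250 bases before and 50 after a start site, and a window was found for 7 of the 7 genes. Positions below are counted from the start site of each window. For Fbp1 and Pck2 that site lies some bases away from the end of the gene given below. Pck1 lies at chr2:173152823-173153122 on the plus strand, G6pc at chr11:101367466-101367765 on the plus strand, Fbp1 at chr13:62888233-62888532 on the minus strand and Slc37a4 (the most upstream of its 3 windows) at chr9:44396696-44396995 on the plus strand. Each is written 5′ to 3′ along its gene, and capitals mark matches to a searched motif.
Pck1: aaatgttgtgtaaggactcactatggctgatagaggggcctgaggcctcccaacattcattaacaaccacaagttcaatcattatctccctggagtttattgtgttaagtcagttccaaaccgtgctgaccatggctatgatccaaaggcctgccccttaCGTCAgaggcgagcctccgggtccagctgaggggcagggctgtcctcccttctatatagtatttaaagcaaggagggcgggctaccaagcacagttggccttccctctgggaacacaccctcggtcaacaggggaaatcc
G6pc: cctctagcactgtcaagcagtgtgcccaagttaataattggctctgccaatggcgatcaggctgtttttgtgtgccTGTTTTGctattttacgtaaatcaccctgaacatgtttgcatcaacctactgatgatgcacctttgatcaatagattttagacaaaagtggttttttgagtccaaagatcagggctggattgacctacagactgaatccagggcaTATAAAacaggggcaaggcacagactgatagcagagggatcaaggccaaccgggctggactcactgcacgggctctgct
Fbp1: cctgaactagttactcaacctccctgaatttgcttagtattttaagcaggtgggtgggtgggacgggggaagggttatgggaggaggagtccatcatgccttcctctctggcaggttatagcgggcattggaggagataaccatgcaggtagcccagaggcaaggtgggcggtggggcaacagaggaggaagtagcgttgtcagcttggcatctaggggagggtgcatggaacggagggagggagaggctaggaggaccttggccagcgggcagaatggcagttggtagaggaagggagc
Slc37a4: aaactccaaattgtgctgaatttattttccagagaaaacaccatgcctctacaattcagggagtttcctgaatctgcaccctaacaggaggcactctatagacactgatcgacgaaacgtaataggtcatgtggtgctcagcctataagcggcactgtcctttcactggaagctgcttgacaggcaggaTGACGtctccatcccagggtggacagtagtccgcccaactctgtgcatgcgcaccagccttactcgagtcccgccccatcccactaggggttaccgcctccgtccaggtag

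The motifs were searched on both strands. They were the cAMP response element TGACGTCA, its shorter core TGACG (contained in the longer form), the forkhead cores TGTTTAC and TGTTTTG, the FXR inverted repeat IR-1 and the TATA box TATAAA. Pck1 held TGACG at position -90 from the start, on the minus strand, so that it reads CGTCA above, and Slc37a4 held it at -61 on the plus strand of the window shown. The second Slc37a4 window overlaps the first, and its TGACG at -214 on the plus strand is that same site. The second window also held TGACG at -82 on the minus strand, and the third held TATAAA at -32. G6pc held TGTTTTG at -174 and TATAAA at -29. The Fbp1, Pcx and Mdh1 windows held 0 matches, and the Pck2 window held TGTTTTG at -159. Among 32851 promoter windows of the same length, TGACG occurred in 20.8%, TGTTTTG in 6.28%, TATAAA in 13.6%, TGTTTAC in 3.65%, TGACGTCA in 1.79% and the FXR repeat in 0.009%. These are matches of letters in a short window, and no protein binding was measured.

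Levels below are the deposited log2 expression values, differences are log2 differences, and errors are standard errors (SE) of the limma fit unless named as SD. A gene counts as called when its limma p, adjusted by Benjamini-Hochberg over all 22180 genes, is under 0.05. Arrays of 1 experiment deviated together, so p-values with the experiment as a block (the replicate block) are given for the enzymes where they change a call, and as counts for the gene lists. Levels of different genes come from different probes and are not set against each other. In these bulk samples, fewer cells of a type and less RNA per cell cannot be told apart.

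Array medians lay between 3.21 and 3.28. The 1105 olfactory receptor genes, which hepatocytes are not known to use, had a median level of 2.78, and 95% of their values lay below 3.75, taken here as the background. Most hepatocyte markers were high, with Alb (albumin) at a mean of 13.1 and Ahsg at 12.6, although Serpina1a averaged 5.47 and Asgr1 4.07. Of 6 macrophage markers 4 averaged below that background, among them Adgre1 at 2.46 and Clec4f at 3.04, while Cd68 averaged 9.12 and Marco 4.01. Of 6 endothelial markers 2 were below it, Clec4g at 2.47 and Kdr at 3.33, and the other 4 averaged 4.78 (Stab2) to 6.94 (Cdh5). Among stellate cell markers Acta2 averaged 5.74 and the others 2.94 (Des) to 3.71 (Reln). Among cholangiocyte markers Sox9 averaged 7.18 and Krt19 4.47, and the others 2.48 (Cftr) to 3.37 (Epcam). The hairpin's own target, Foxa2, was lower with shFOXA2 in 12 of 12 pairs, and the differences ran from -0.90 to -0.03. They averaged -0.43 (SE 0.07; limma adjusted p = 0.0613, and 0.0194 when the experiment was a block). Experiment means were -0.51, -0.66 and -0.12 for experiments 1 to 3, so the hairpin comparisons below rest on a partial reduction that was smallest in experiment 3.

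Glucagon against insulin gave the widest differences. Pck1 and G6pc were far higher under glucagon in all 4 combinations of hairpin and drug, Fbp1 was about 2.33 times as high, and Mdh1 was 32.1% higher. These 4 of the 7 enzymes were called in the difference averaged over hairpin and drug, all higher under glucagon, while 16.2% of all genes were called, 7.38% higher. Pcx and Slc37a4 were called too with the replicate block, which made 6 of 7, against 24.6% of all genes. Pck2 was not called in either. The median difference of the 7 enzymes was 0.40, and that of all genes 0.01.

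Pck1 (chromosome 2, 173153073 to 173159274 in GRCm38.p6) makes phosphoenolpyruvate from oxaloacetate in the cytosol. Under glucagon with GW4064 its level was 10.46, 8.01 and 10.47 in shFOXA2 cells and 10.67, 8.48 and 9.70 in shlacZ cells, in experiments 1, 2 and 3. Under glucagon with DMSO it was 10.11, 8.22 and 9.75 in shFOXA2 cells and 10.32, 8.99 and 9.68 in shlacZ cells. Experiment 2 was the lowest of the 3 in each of these groups. Under insulin with GW4064 the level was 4.16, 3.14 and 3.70 in shFOXA2 cells and 3.70, 3.07 and 3.496 in shlacZ cells. Under insulin with DMSO it was 3.36, 3.39 and 3.58 in shFOXA2 cells and 3.44, 3.68 and 3.69 in shlacZ cells. The glucagon and insulin arrays did not overlap, and 11 of the 12 insulin arrays lay below the background of 3.75, against 0 of the 12 glucagon arrays.

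The averaged Pck1 difference was 6.04 (SE 0.30, limma adjusted p = 8.58e-12). Because its insulin level was not above background, the fold between the means is a bound. On average Pck1 was at least 55.2-fold higher under glucagon, and at least 48.9-fold to 60.3-fold in the 4 conditions. These bounds allow for background but not for the spread between experiments. The mean glucagon level was 10.39 in experiment 1 and 8.43 in experiment 2, where the bound would be lower. Glucagon exceeded insulin in 12 of 12 pairs of the same experiment, hairpin and drug, by 4.83 to 6.97. The 4 pairs of experiment 2 averaged 5.11, below the 6.73 of experiment 1. In order of group means the 4 glucagon groups ran from 9.66 (shlacZ with DMSO) down to 9.36 (shFOXA2 with DMSO) and the 4 insulin groups from 3.66 to 3.42. Neighbours in that order overlapped in range everywhere except across the hormones.

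G6pc (chromosome 11, 101367716 to 101377903) encodes the enzyme that releases free glucose at the end of the pathway. Under glucagon with GW4064 it stood at 9.29, 7.19 and 8.84 in shFOXA2 cells and at 9.34, 7.30 and 7.83 in shlacZ cells. With DMSO the glucagon values were 8.69, 8.21 and 8.44 in shFOXA2 cells and 8.80, 8.59 and 8.05 in shlacZ cells. The glucagon arrays with GW4064 were thus spread wider, with an SD of 0.98 over 6 arrays, than those with DMSO, with an SD of 0.29. This difference in spread was not tested. Under insulin with GW4064 the level was 3.43, 3.01 and 3.24 in shFOXA2 cells and 3.27, 3.03 and 3.27 in shlacZ cells. Under insulin with DMSO it was 3.35, 2.80 and 3.98 in shFOXA2 cells and 2.83, 3.01 and 3.42 in shlacZ cells. As for Pck1, the hormones did not overlap and 11 of 12 insulin arrays were below background, with 1 shFOXA2 array of experiment 3 above it.

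The averaged G6pc difference was 5.16 (SE 0.23, limma adjusted p = 2.35e-12). As a bound on the means, G6pc was on average at least 24.4-fold higher under glucagon, and at least 21.2-fold to 26.5-fold in the 4 conditions. Here too the spread between experiments is not allowed for. The mean glucagon level was 9.03 in experiment 1 and 7.82 in experiment 2, where the bound would be lower. All 12 of 12 pairs were higher, by 4.18 to 6.06. The 4 glucagon groups lay between 8.48 (shlacZ with DMSO) and 8.15 (shlacZ with GW4064), the 4 insulin groups between 3.38 and 3.09, and neighbours overlapped except across the hormones.

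**Figure D1:**
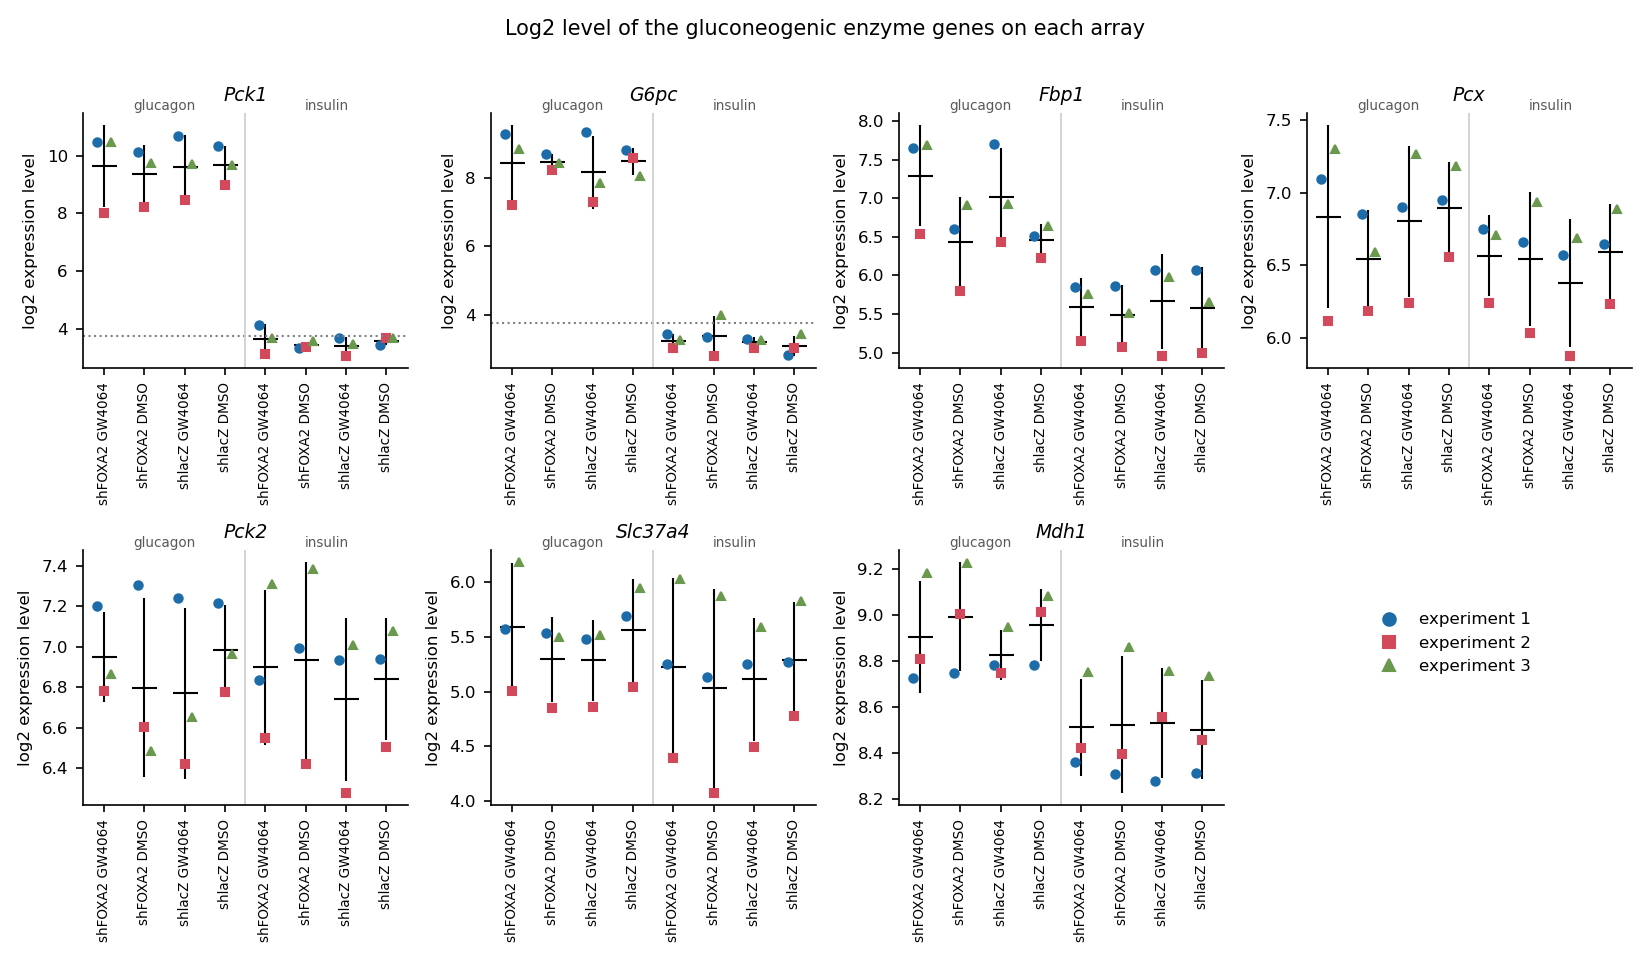
Log2 level of each enzyme gene on each of the 24 arrays (y axis), by hairpin and drug (x axis), with glucagon groups left of the grey line and insulin groups right of it. Points are arrays coloured by experiment, bars are the mean and SD of 3 arrays, and the dotted line marks the background of 3.75. Pck1 and G6pc separate by hormone, Fbp1 and Mdh1 separate within each experiment, and experiment 2 is the lowest for Pcx and Slc37a4 in every group.

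Fbp1 (chromosome 13, 62864753 to 62888298) removes a phosphate from fructose-1,6-bisphosphate. Under glucagon with GW4064 it was at 7.66, 6.54 and 7.69 in shFOXA2 cells and at 7.70, 6.43 and 6.93 in shlacZ cells. Under glucagon with DMSO it was at 6.60, 5.79 and 6.92 in shFOXA2 cells and at 6.51, 6.22 and 6.64 in shlacZ cells. The 6 arrays with GW4064 covered the upper part of the glucagon range, 6.43 to 7.70, against 5.79 to 6.92 with DMSO, and the ranges overlapped. Under insulin with GW4064 it was at 5.85, 5.15 and 5.76 in shFOXA2 cells and at 6.06, 4.96 and 5.98 in shlacZ cells. Under insulin with DMSO it was at 5.86, 5.08 and 5.51 in shFOXA2 cells and at 6.07, 5.001 and 5.65 in shlacZ cells. Over all arrays the hormones overlapped, because experiment 2 was lower throughout, but within each experiment every glucagon array was above every insulin array.

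Fbp1 rose under glucagon by 1.22 (SE 0.19, limma adjusted p = 0.0001), higher in 12 of 12 pairs by 0.44 to 1.93. By condition the difference was 1.71 in shFOXA2 cells with GW4064 (limma adjusted p = 0.0146), 0.95 in shFOXA2 cells with DMSO (0.227), 1.35 in shlacZ cells with GW4064 (0.0709) and 0.88 in shlacZ cells with DMSO (0.26), with an SE of 0.39 each. With the replicate block all 4 passed, at limma adjusted p of 8.34e-07, 0.000552, 1.58e-05 and 0.00121. Pck1 and G6pc passed in each condition without the block. Enzymes called per condition were therefore 3 of 7 in shFOXA2 cells with GW4064, against 3.49% of all genes. They were 2 of 7 in shFOXA2 cells with DMSO (4.79% of all genes), in shlacZ cells with GW4064 (3.09%) and in shlacZ cells with DMSO (4.68%). In the same order of conditions, the block raised these counts to 4 of 7 (9.14% of all genes), 4 of 7 (11.3%), 5 of 7 (8.41%) and 4 of 7 (11.2%), adding Mdh1 in each condition, Fbp1 where it had not passed, and Pcx in shlacZ cells with GW4064.

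Mdh1 (chromosome 11, 21556692 to 21571934) regenerates oxaloacetate in the cytosol. It was at 8.72, a median of 8.88 and 9.22 under glucagon (lowest, median and highest of 12 arrays), against 8.28, 8.44 and 8.86 under insulin. These ranges overlapped over all arrays but in none of the 3 experiments: 8.72 to 8.78 against 8.28 to 8.36 in experiment 1, 8.75 to 9.01 against 8.40 to 8.56 in experiment 2 and 8.95 to 9.22 against 8.74 to 8.86 in experiment 3. The rise was 0.40 (SE 0.09, limma adjusted p = 0.00175) and was seen in 12 of 12 pairs, from 0.19 to 0.60. Without experiment 2 the difference was 0.39 and its limma adjusted p 0.0981, or 0.000214 with the replicate block.

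Pcx (chromosome 19, 4510472 to 4621752), the mitochondrial entry enzyme, was at 6.11, a median of 6.88 and 7.30 under glucagon, against 5.87, 6.65 and 6.93 under insulin. The groups overlapped, but 10 of 12 pairs were higher under glucagon. The 2 lower pairs, of -0.34 and -0.13, were both shFOXA2 pairs. The averaged difference of 0.25 (SE 0.16) had a limma adjusted p of 0.385, or 0.00367 with the replicate block. That call was lost with the block and no experiment 1 (limma adjusted p = 0.0889). With the block and by condition, the difference of 0.42 in shlacZ cells with GW4064 passed (limma adjusted p = 0.0337) and the other 3, from 0.00 to 0.30, did not.

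Slc37a4 (chromosome 9, 44396946 to 44402966), the glucose-6-phosphate carrier, was at 4.85, a median of 5.50 and 6.18 under glucagon, against 4.07, 5.25 and 6.02 under insulin. It too was higher in 10 of 12 pairs, and both lower pairs came from experiment 3. The averaged difference of 0.27 (SE 0.23) had a limma adjusted p of 0.547, or 0.0197 with the replicate block. Without experiment 3 it was 0.42 and without experiment 2 it was 0.15. With the block it passed without experiment 3 (limma adjusted p = 0.000196) but not without experiment 1 (0.258) or experiment 2 (0.354), and it did not pass in limma on differences per experiment (0.154).

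Pck2 (chromosome 14, 55540263 to 55550020), the mitochondrial carboxykinase, split by experiment and not by hormone alone. In experiment 1 its 4 glucagon arrays lay at 7.20 to 7.31, against 6.83 to 6.995 for insulin. In experiment 3 the order was the other way round, with 6.48 to 6.97 under glucagon against 7.01 to 7.39 under insulin. In experiment 2 the ranges overlapped, at 6.42 to 6.78 under glucagon and 6.27 to 6.55 under insulin, and all 4 pairs were higher under glucagon. In all, 8 of 8 pairs of experiments 1 and 2 were higher, by 0.14 to 0.37, and 4 of 4 pairs of experiment 3 were lower. The average of 0.02 (SE 0.14, limma adjusted p = 0.955) therefore joins opposite signs, and without experiment 3 it was 0.26, with a limma adjusted p of 0.407, or 0.00708 with the replicate block. Leaving out experiment 3 removes all 4 pairs of the other sign, and its combination with the block was chosen after seeing the data. With the block, Pck2 did not pass without experiment 1 or without experiment 2. The cause of the split by experiment was not tested.

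**Figure D2:**
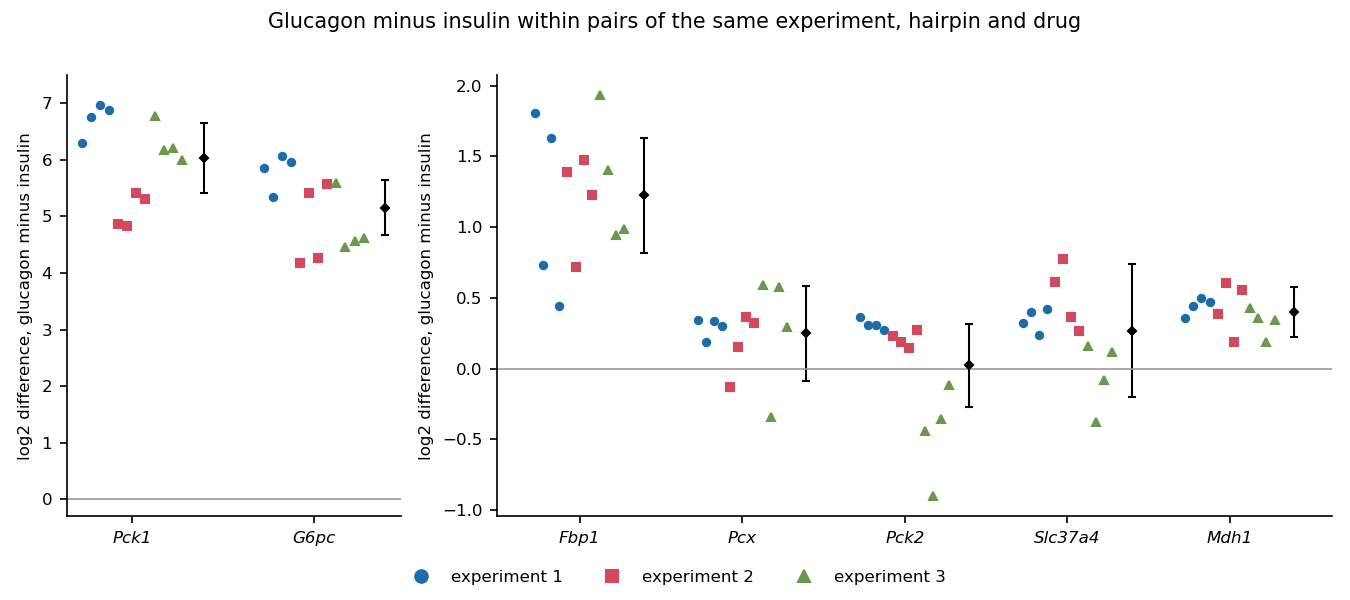
Log2 difference of glucagon minus insulin (y axis) for each enzyme gene (x axis), with a point for each of 12 pairs of the same experiment, hairpin and drug, and beside them the averaged estimate with its 95% confidence interval from the fit without a block. Pairs of Pck1, G6pc, Fbp1 and Mdh1 all lie above 0, and the 4 experiment 3 pairs of Pck2 lie below it.

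Experiment 2 was lower for most of the enzymes. All 8 of its arrays lay below their group mean for Fbp1, Pcx, Pck2 and Slc37a4. For Pck1 its 4 glucagon arrays were below by 1.15 on average, while its insulin arrays, near background, were below by 0.21. Mdh1 differed, with its lowest mean in experiment 1 and its highest in experiment 3. Hepatocyte markers were lowest in experiment 2 as well, with a mean level over 9 markers of 9.86, 9.65 and 10.02 in experiments 1, 2 and 3. Macrophage markers had the same order, at 3.98, 3.83 and 4.10. Endothelial markers averaged 5.49, 4.53 and 4.81, stellate cell markers 3.90, 3.60 and 3.49, and cholangiocyte markers 4.16, 4.12 and 4.00. The part of any of these markers in the shifts was not tested.

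Deviations from the group means, which remove hormone, hairpin and drug, were compared across the 24 arrays as a description. These points share their experiments. Pck1 and G6pc moved together (r = 0.803), as did Pcx and Slc37a4 (r = 0.875), while Mdh1 and Pck1 did not (r = 0.028). Among 6286 genes with a highest group mean of at least 6, those most like Pck1 in deviations were Gpcpd1 (r = 0.889), Aldh8a1 (0.87), Nedd4l (0.86), Hipk1 (0.858) and Tbc1d8 (0.853). For G6pc they were Clasp1 (0.9), Sqor (0.855), Erbb3 (0.855), Nedd4l (0.85) and Gpcpd1 (0.837), and for Fbp1 they were Msra (0.945), Eefsec (0.943), Slc16a5 (0.938), Gm5424 (0.935) and Pipox (0.93). In levels, where the arrays fall into the hormone groups, the most like Pck1 were Nedd4l (0.992), G6pc (0.99), Gpcpd1 (0.987), Irs2 (0.983) and Slc25a15 (0.982). For G6pc they were Nedd4l (0.993), Pck1 (0.99), Gpcpd1 (0.988), Foxa1 (0.983) and Klhl24 (0.982). For Fbp1, Gm5424 (0.906), Hnf4a (0.902), Mettl7b (0.899), Hmox1 (0.887) and Cbs (0.883) came closest.

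None of the 7 enzymes passed the limma test for GW4064 against DMSO, under either hormone or on average, with or without the replicate block. Of all genes, 0.00902% were called in the averaged drug difference, 0.0% under glucagon and 0.0% under insulin, where 786 and 555 genes had an unadjusted p under 0.05. The replicate block gave 3 genes on average (0.0135%) and 2 under each hormone (0.00902%). In that fit 1363 genes had an unadjusted limma p under 0.05 under glucagon and 973 under insulin. One of the genes called on average was Nr0b2, a classical FXR target that encodes the repressor SHP, which rose by 0.53 (SE 0.08, limma adjusted p = 0.0337). Among the enzymes, 1 of 7 had an unadjusted p under 0.05 under glucagon and 0 of 7 under insulin.

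That enzyme was Fbp1. Under glucagon its GW4064 minus DMSO differences were 1.06, 0.74 and 0.77 in shFOXA2 cells and 1.18, 0.20 and 0.29 in shlacZ cells, in experiments 1, 2 and 3. All 6 of 6 pairs were higher. The estimate was 0.71 (95% interval 0.13 to 1.28), which ranked 5 of 22180 genes, with a limma adjusted p of 1, or 0.0614 with the replicate block. Under insulin the pairs were -0.02, 0.07 and 0.25 in shFOXA2 cells and -0.01, -0.05 and 0.33 in shlacZ cells, an estimate of 0.10 (-0.48 to 0.67). The difference between the hormones, 0.61, had an interval of -0.20 to 1.43 and a limma adjusted p of 1, or 0.953 with the block.

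G6pc under glucagon followed the experiment. Its drug differences in experiment 1 were 0.60 in shFOXA2 and 0.54 in shlacZ cells. In experiment 2 they were -1.02 and -1.29, and in experiment 3 they were 0.40 and -0.21, in the same order of hairpins. The estimate was -0.16 (-0.84 to 0.51). Pck1 showed a smaller split of the same kind, with 0.34 and 0.35 in experiment 1, -0.21 and -0.51 in experiment 2 and 0.72 and 0.02 in experiment 3, and an estimate of 0.12 (-0.75 to 0.99). The signs in experiments 1 and 2 were thus opposite for both genes in both hairpins, and intervals of this width leave changes of either sign possible.

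For the other enzymes under glucagon the drug estimates were 0.10 for Pcx (-0.38 to 0.57), -0.03 for Pck2 (-0.45 to 0.38), 0.01 for Slc37a4 (-0.65 to 0.68) and -0.11 for Mdh1 (-0.36 to 0.14). Under insulin, Fbp1 aside, they lay between -0.10 (Pcx) and 0.02 (Pck1). For Pck1 and for G6pc, 11 of the 12 insulin arrays lay below background, so a fall under insulin could not show in either. Slc37a4 was picked from among the enzymes because the signs of its pairs differed by hairpin. Its level with GW4064 was higher than with DMSO in 6 of 6 shFOXA2 pairs, by 0.04 to 0.69. In 6 of 6 shlacZ pairs it was lower, by 0.02 to 0.43. How many of all genes share this pattern was not counted. The difference of these effects, 0.47 (-0.47 to 1.41), had a limma adjusted p of 1, or 0.835 with the replicate block.

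**Figure D3:**
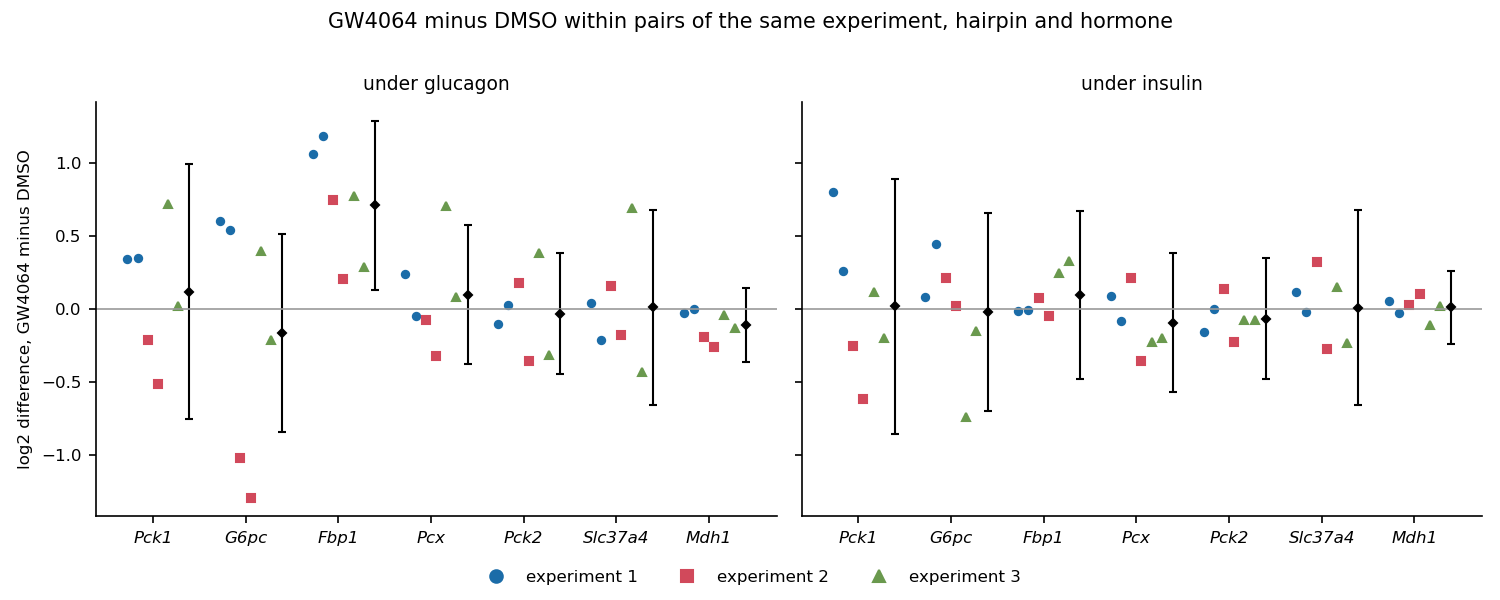
Log2 difference of GW4064 minus DMSO (y axis) for each enzyme gene (x axis), under glucagon on the left and insulin on the right. Points are 6 pairs of the same experiment and hairpin, shFOXA2 left of shlacZ within an experiment, and bars are the estimate with its 95% confidence interval from the fit without a block. The 6 Fbp1 pairs under glucagon lie above 0, and the G6pc pairs under glucagon spread from -1.29 to 0.60.

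For shFOXA2 against shlacZ 0 of the 7 enzymes passed the limma test, on average or under either hormone, with or without the replicate block. Of all genes 0.00902% were called on average, 0.0% under glucagon (936 at an unadjusted p under 0.05) and 0.00451% under insulin, and with the replicate block 17 genes were called on average (0.0766%), 1 under glucagon (0.00451%) and 2 under insulin (0.00902%). The averaged estimates, shFOXA2 minus shlacZ, were -0.05 for Pck1 (-0.67 to 0.57), 0.15 for G6pc (-0.33 to 0.63), 0.02 for Fbp1 (-0.39 to 0.43) and -0.05 for Pcx (-0.38 to 0.29). They were 0.06 for Pck2 (-0.23 to 0.35), -0.03 for Slc37a4 (-0.50 to 0.44) and 0.03 for Mdh1 (-0.15 to 0.21). In no enzyme did the 12 pairs share a sign: the shFOXA2 array was higher in 5 to 7 of 12 pairs of each gene. For Pck1 and G6pc the insulin pairs compare levels near background, and they enter the averaged estimates and pair counts of both genes.

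Under glucagon Pck1 was lower in shFOXA2 cells in 4 of 6 pairs, and G6pc likewise, but experiment 3, where Foxa2 was least reduced, held the pairs of the other sign, up to 0.77 for Pck1 and 1.00 for G6pc. A relation to the Foxa2 level was not tested. The interactions of hormone, drug and hairpin called 0 of the 7 enzymes and 0 of 22180 genes (0.0%), with 584 genes at an unadjusted p under 0.05 for hormone by drug, 921 for hormone by hairpin, 705 for drug by hairpin and 709 for all 3 factors. These counts of called genes were 0 with the block as well. In the block fit 1 of 7 enzymes had an unadjusted limma p under 0.05 for hormone by drug, and 986 of 22180 genes did. For drug by hairpin 2 of 7 enzymes did, and 1270 of 22180 genes. Without the block 0 of 7 enzymes did in either.

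**Figure D4:**
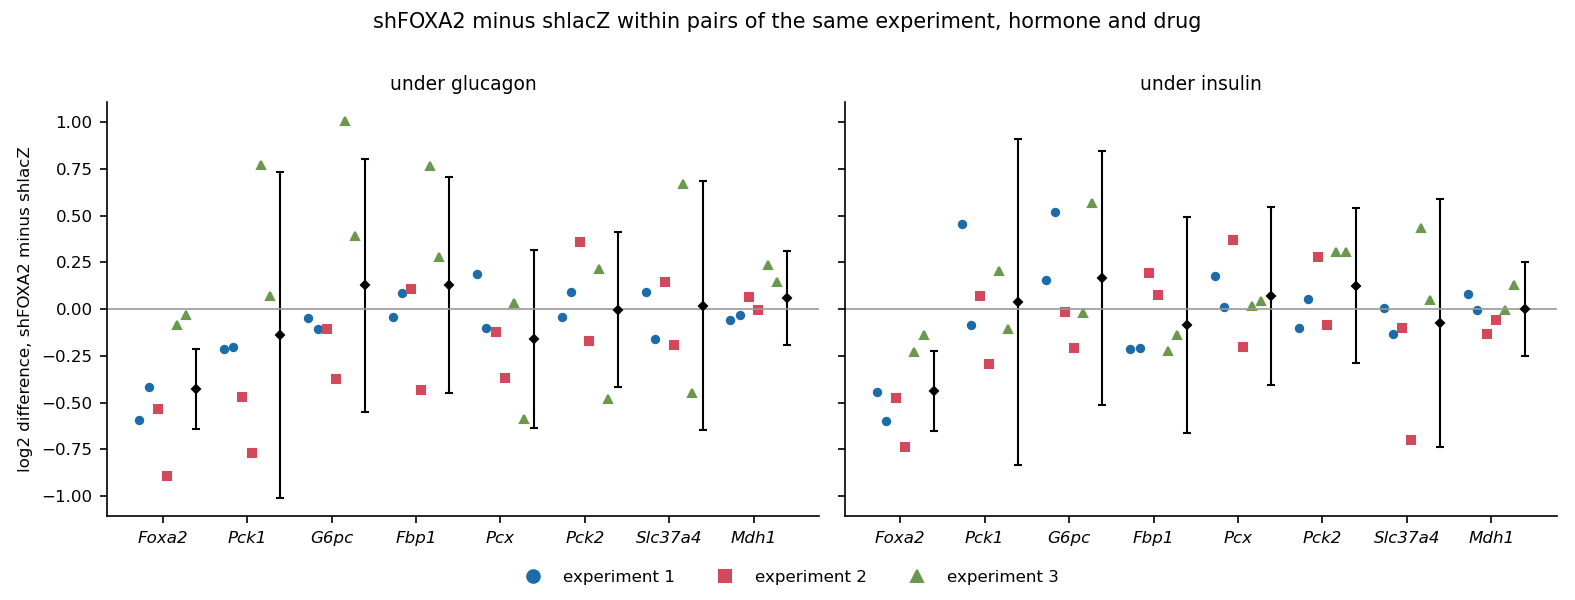
Log2 difference of shFOXA2 minus shlacZ (y axis) for Foxa2 and each enzyme gene (x axis), under glucagon on the left and insulin on the right. Points are 6 pairs of the same experiment and drug, and bars are the estimate with its 95% confidence interval from the fit without a block. The Foxa2 pairs lie below 0 and those of every enzyme lie on both sides of it.

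The other steps of the pathway and its regulators were counted from fixed lists, chosen with earlier results of these data known. The shares of all genes beside these counts are therefore a description and not a test. Of the enzymes that gluconeogenesis shares with glycolysis in the reverse direction, 4 of 7 listed were matched to a probe set, and 1 rose under glucagon: Gapdh, glyceraldehyde-3-phosphate dehydrogenase, by 0.14 (limma adjusted p = 0.00515). In the block fit 3 of 4 rose. The shares of all genes called in this averaged hormone comparison were 16.2% (7.38% higher), and 24.6% in the block fit. The median difference of the list was 0.14. Of the genes that bring substrate in or shuttle it across the mitochondrial membrane, 17 of 20 were measured, 5 rose, 1 fell and 11 did not pass (16.2% of all genes were called), with a median of 0.18. The transaminases Got1 and Gpt2 rose by 1.64 (SE 0.06) and 1.08 (SE 0.09), and Slc16a7, a monocarboxylate carrier, rose by 0.91 (SE 0.25). Aqp9, the channel through which hepatocytes take up glycerol, fell by 1.00 (SE 0.17, limma adjusted p = 0.000172). Of the opposing glycolytic enzymes and glucose exit genes, 8 of 10 were measured and 0 passed, with a median of 0.03. In the block fit 10 substrate genes rose and 2 fell (24.6% of all genes were called). Of the list of opposing glycolytic enzymes and glucose exit genes, 2 rose and 2 fell in that fit. Gckr rose by 0.37 and Pfkl by 0.23, while Pklr fell by 0.16 and G6pc3 by 0.22.

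Of 24 regulators of gluconeogenic transcription, 16 rose and 2 fell under glucagon (16.2% of all genes were called), with a median of 0.58. In the block fit 17 rose and 3 fell (24.6% of all genes), adding Tcf7l2 at 0.24 (limma adjusted p = 0.0296) and Creb1 at -0.26 (0.000135). The nuclear receptor Nr4a3 rose by 5.38 (SE 0.08), the coactivator Ppargc1a by 3.76 (SE 0.27), the insulin receptor substrate Irs2 by 2.60 (SE 0.11) and the kinase Sik1 by 2.15 (SE 0.08). The 2 that fell without the block were Nr3c1, the glucocorticoid receptor, by 0.50 and Nr1h4, the gene of FXR itself, by 0.48 (limma adjusted p = 0.0184). Foxa2 rose by 1.19 (SE 0.07), beside the difference of -0.43 between the hairpins. In the averaged GW4064 comparison 1 of 24 regulators passed, Nr0b2 above, and in the averaged hairpin comparison 0 passed, or 1 with the replicate block, Foxa2.

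**Figure D5:**
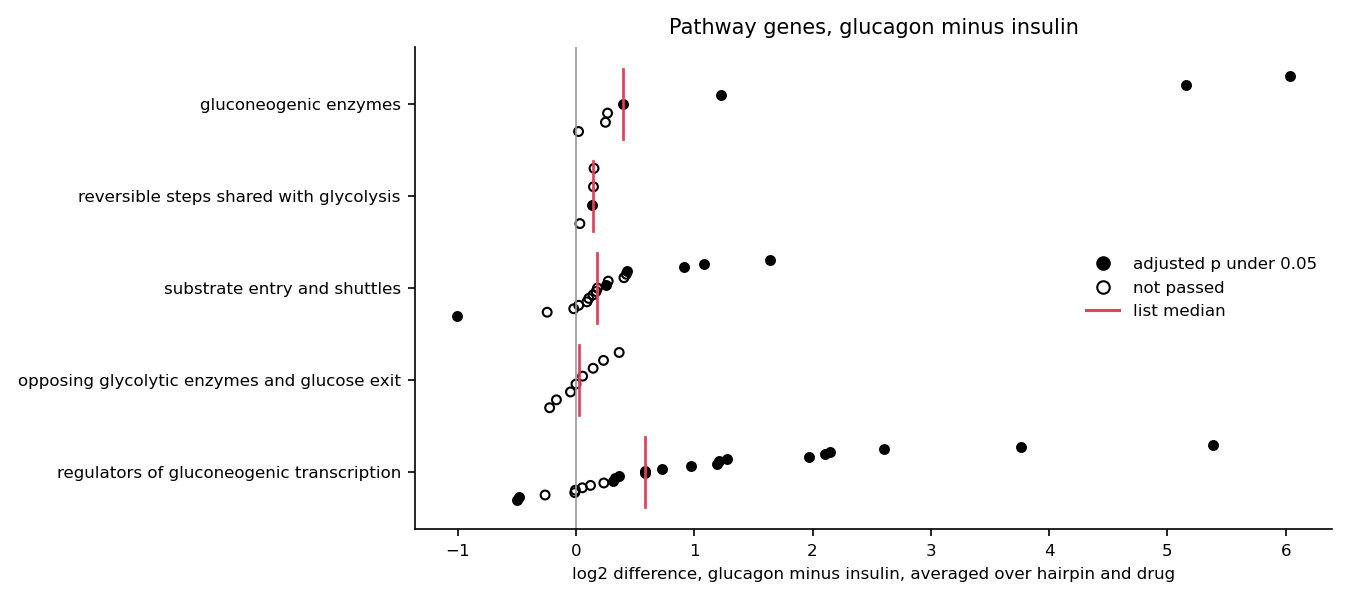
Log2 difference of glucagon minus insulin averaged over hairpin and drug (x axis) for the genes of each list (rows), filled where the limma adjusted p was under 0.05. Red lines are list medians, from 0.58 for regulators to 0.03 for opposing glycolytic enzymes and glucose exit genes. Pck1 and G6pc are the rightmost enzymes at 6.04 and 5.16.

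Markers of cell types were compared between the hormones in the same way. Of 9 hepatocyte markers 4 rose under glucagon (16.2% of all genes were called, 7.38% higher), Cps1 by 1.10 and Fgb, Ttr and Ahsg by 0.24 to 0.43, and the array means of the list were 9.70 to 10.2 under glucagon and 9.44 to 10.1 under insulin. Of 6 macrophage, 6 stellate cell and 6 endothelial markers 0 passed without the block. In the block fit (24.6% of all genes called) Cd68 rose by 0.24 (limma adjusted p = 0.0462), Lrat by 0.19 (0.0133), Reln by 0.25 (0.00923) and Cdh5 by 0.16 (0.0172). The stellate cell markers Lrat and Reln averaged 2.98 and 3.71, below the background of 3.75. Array means of these lists were 3.76 to 4.23 under glucagon and 3.69 to 4.13 under insulin for macrophages, 3.49 to 4.01 and 3.39 to 3.90 for stellate cells, and 4.50 to 5.61 and 4.44 to 5.55 for endothelial cells, in the same order of hormones. Of 5 cholangiocyte markers 1 fell, Sox9 by 1.199, and in the block fit Krt19 fell as well, by 0.53 (limma adjusted p = 4.61e-05). The list lay at 3.76 to 4.06 under glucagon and 4.00 to 4.57 under insulin. The part of these markers in the enzyme differences was not tested.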

How the data were processed

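The authors deposited log2 expression levels of 41345 probe sets on 24 arrays. Per the series' design text they were made with GeneSpring and technical replicates were pooled. That the scale is log2 follows from the range of the values, 1.46 to 13.5. How they were normalized and background corrected is not given in the sources used. The precision is limited by 3 arrays per group.

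The platform annotation named the probe sets: 23521 had 1 symbol, 1814 several and 16010 none. Where a gene had several of its own, the one of highest mean was kept, which gave 22180 genes. Differences were fitted with limma 3.58.1 in R 4.3.3 (1 mean per group, all 24 arrays, 16 residual degrees of freedom, Benjamini-Hochberg over all genes, threshold 0.05). Hormone, drug and hairpin differences were taken within conditions and averaged over them, with 4 interactions. In averaged differences the 4 pairs of an experiment enter the error as separate. Replicates are experiments. In the fit without a block, p-values measure the spread between them within a group. In the block fit the shift shared by all arrays of an experiment is removed, and p-values measure the spread that remains.

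The experiment numbers pair the arrays, since each experiment used 1 pool of hepatocytes per the design text. Deviations from the group means correlated in all 84 same-experiment pairs (r = 0.374 to 0.698), and 24 of 24 arrays matched best with their own experiment. The fit with the experiment as a block had 14 residual degrees of freedom. The fits were tested on simulated data, where each recovered 99 of 100 hormone differences of log2 size 1. That noise was independent between arrays, with no shift shared by an experiment. The simulation therefore cannot show how either fit handles such shifts.

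Named were all 7 enzymes, Foxa2, per pathway list up to 4 passing genes of largest difference, any member passing a drug or hairpin test, and the 5 genes most like Pck1, G6pc and Fbp1. The other named hepatocyte, macrophage, stellate, endothelial and cholangiocyte markers were chosen after their values were seen. So were Nr3c1, Nr1h4, Creb1, Tcf7l2, Gckr, Pfkl, Pklr and G6pc3. The members and lists were chosen with earlier results of these data known. Alternatives were the block, each array or experiment left out, other scaling, a filter on low values, averaged probe sets, another variance prior, all probe sets and differences per experiment. Those that combine the block with a left-out experiment, and the background bound for Pck1 and G6pc, were added after seeing the data.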

Additional observations from a re-analysis of the deposited data

Results flagged for a closer look

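The GW4064 minus DMSO difference of Slc37a4, the glucose-6-phosphate carrier, had opposite signs in the hairpins in every pair. It was picked from among the enzymes, over several comparisons, because its signs differed between groups. How many of all genes share this pattern was not counted, so the pattern alone does not set Slc37a4 apart. It was above 0 in 6 of 6 shFOXA2 pairs and below 0 in 6 of 6 shlacZ pairs, and the difference of these effects was 0.47 (SE 0.45). The limma test of that difference did not pass, with an adjusted p of 1, or 0.835 with the replicate block.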

How the results depend on the processing

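The averaged hormone comparison called 4 of 7 enzymes, and 4 to 7 under 38 alternatives, of which 27 leave out 1 array or experiment. Over all genes it called 3600, 5454 with the replicate block and 2018 to 3610 without 1 experiment. By condition the block moved the count over all genes to 2027 from 775 (shFOXA2 with GW4064), to 2500 from 1062 (shFOXA2 with DMSO), to 1865 from 686 (shlacZ with GW4064) and to 2481 from 1039 (shlacZ with DMSO). With the replicate block the count of enzymes was 6 on average, 5 in shlacZ cells with GW4064 and 4 in each of the DMSO conditions. With the block and no experiment 3, a setting chosen after seeing the data, it was 7 on average, 5 in shFOXA2 cells with GW4064, 5 in shFOXA2 cells with DMSO and 4 in shlacZ cells with DMSO. With the block and no experiment 1 it was 4 in both DMSO conditions, and with the block and no experiment 2 it was 4 in shFOXA2 cells with DMSO. Leaving out 1 array or experiment without the block gave 2 to 3 in each condition. The drug, hairpin and interaction comparisons called 0 enzymes in every alternative. Pck1 (5.69 to 6.504), G6pc (4.83 to 5.33) and Fbp1 (1.13 to 1.32) stayed called under glucagon against insulin throughout, and Mdh1 lost its call only without experiment 2. Pcx passed also without experiment 2 (limma adjusted p = 0.0447) and in differences per experiment (0.02). Of 77 single-gene results, 67 lay within 1 SE of 0 and were not called, so they were taken as having no direction, and 56 of these changed sign in some alternative. Of the 10 others 0 reversed. Insulin levels of Pck1 and G6pc near background limit their folds to bounds.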
